A study of Homo sapiens with 12 samples.

Results

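The FGF-ERK feedback genes are a group of 10 genes that cells are known to switch on in answer to ERK signalling: the phosphatase genes DUSP4, DUSP5 and DUSP6, the inhibitor genes SPRY1, SPRY2, SPRY4 and SPRED1, PHLDA1, and the transcription factor genes ETV4 and ETV5. They were taken by name, with every array probe annotated to them, which gave 20 probes of 47231. Earlier results of these data, with DUSP6 and PHLDA1 in them, were known when the group was chosen. In these cells 15 of the 20 probes were kept as detected (a detection p-value under 0.05 on 3 or more arrays), and 9 of the 10 genes entered the tests among 11139 genes. DUSP4 did not, because neither of its probes was above background on any array.

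Fibroblast growth factors bind receptor tyrosine kinases at the cell surface, and the signal passes through RAS, RAF and MEK to the kinase ERK. ERK then raises the transcription of genes whose products damp the same route, so the messenger RNA of these genes is often read as a trace of recent ERK activity. Human pluripotent cells, to which embryonal carcinoma cells are closely related, rely on FGF signalling, and cultures of them are commonly fed FGF2.

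The cells were NT2/D1, cisplatin-sensitive human embryonal carcinoma cells that come from a germ cell tumor of the testis, and all groups were this single wild-type line. The paper describes culture in DMEM with fetal bovine serum and names no added FGF2. Messenger RNA was measured on 12 Illumina bead arrays in 4 groups of 3: control cells, cells given 10 nM 5-aza deoxycytidine (5-aza), which becomes part of DNA and traps DNA methyltransferases, for 1 day, cells given the same dose for 3 days, and cells exposed to 0.5 µM cisplatin, a platinum drug that forms crosslinks in DNA, for 6 hours and harvested after a 24 hour recovery. The sources call the controls untreated in one place and vehicle treated in another, and they name biological triplicates without saying that the replicates were separate cultures, so p-values measure the spread between these samples, which may in part be technical. Array positions on the chip followed the groups, so position and group cannot be told apart.

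Before normalization the arrays had median intensities between 154.3 and 188.4, with between 15435 and 19824 detected probes each. The median standard deviation across all genes was 0.17 on the log2 scale in controls, 0.12 after 1 day, 0.13 after 3 days and 0.36 with cisplatin, and the cisplatin arrays correlated with each other at 0.927 to 0.959. All 9 embryonal carcinoma and pluripotency markers with a probe (of 10 listed, among them POU5F1, SOX2 and LIN28A) were detected on every array of every group, and their summed intensity was 69121 to 70916 in controls, 54171 to 58978 after 3 days and 51093 to 69481 with cisplatin. All 5 endoderm markers (AFP, SOX17, GATA4, GATA6 and FOXA2) were undetected in every group, as were 3 of 5 trophoblast markers (GATA3, KRT7 and HAND1). Of the other trophoblast markers, CGA was undetected on all arrays of every group but the 3 day group, and TFAP2A on all 3 day arrays. The sum of 5 neural markers (of 6 listed) was 5446 to 7951 in controls, 8013 to 9091 after 1 day, 8372 to 9061 after 3 days and 5655 to 10088 with cisplatin. PAX6 was undetected on all arrays of each treated group. The sum of 8 fibroblast markers was 2652 to 3000 in controls, 2210 to 2673 after 1 day, 1739 to 1985 after 3 days and 2130 to 3251 with cisplatin. LUM was undetected in every group, and DCN in every group but the 3 day group. COL3A1 and PDGFRA were undetected after 3 days alone, and COL1A2 after 1 day alone. The part of these shifts in the results below was not tested. In bulk RNA, fewer cells of a type and less RNA per cell cannot be told apart.

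After 3 days of 5-aza the feedback genes did not move as a block. DUSP6 and PHLDA1 fell by 2.02 and 1.29 on the log2 scale, DUSP5 rose 2.07-fold, and the other 6 tested genes, among them all 3 Sprouty genes and both ETV genes, did not pass the test. After 1 day no member passed, and with cisplatin none did either, although ETV5 lay above control on all 3 cisplatin arrays.

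**Figure D1:**
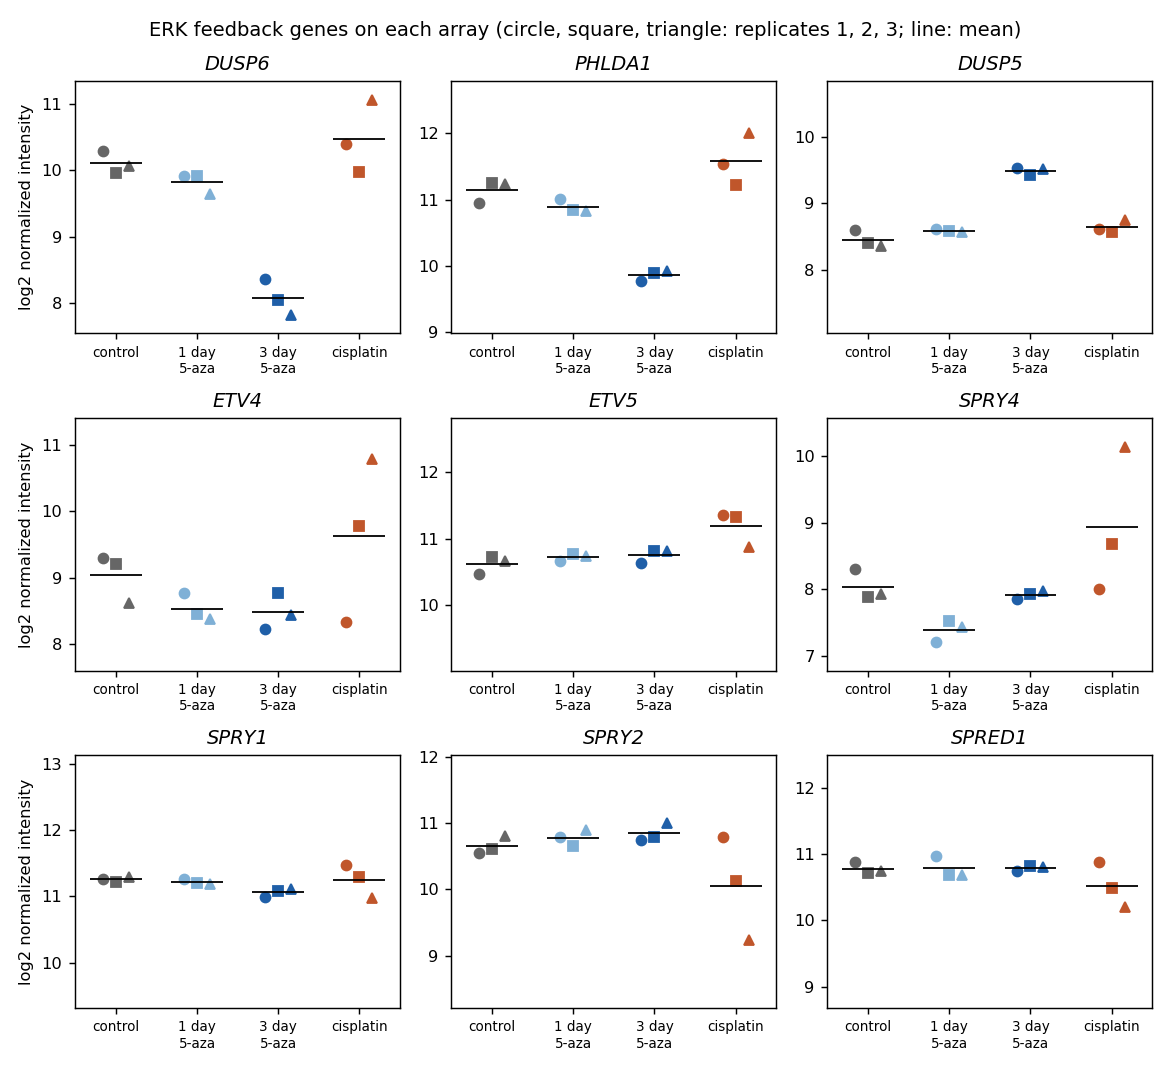
Normalized log2 intensity of the 9 tested feedback genes on each of the 12 arrays, with replicates 1, 2 and 3 as circle, square and triangle and the mean of each group as a line; all panels span the same number of log2 units, and levels are not comparable between genes. The 3 day arrays stand apart from the other groups for DUSP6 and PHLDA1 (low) and for DUSP5 (high), and the cisplatin arrays spread widely for ETV4, SPRY4 and SPRY2.

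Values below are normalized log2 intensities of the brightest probe of each gene, in the order of replicates 1, 2 and 3, and differences are log2 with the standard error of a limma model over all 12 arrays (n = 3 arrays per group, p-values adjusted over all 11139 genes by the Benjamini-Hochberg method, called at an adjusted p under 0.05). Levels of different probes were not set against each other.

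DUSP6 encodes the phosphatase that removes the activating phosphates from ERK in the cytoplasm, and is a standard transcriptional readout of FGF signalling. Its locus is chr12:89347235-89352501 (GRCh38.p14, RefSeq). On the controls DUSP6 stood at 10.29, 9.96 and 10.07, after 1 day of 5-aza at 9.91, 9.91 and 9.64, after 3 days at 8.37, 8.05 and 7.83, and with cisplatin at 10.39, 9.98 and 11.06. All 3 arrays of the 3 day group were thus far below every other array, while cisplatin replicate 3 was the highest of the 12. The 3 day difference from control was −2.02 ± 0.24, 4.05-fold lower (95% confidence interval −2.53 to −1.51, adjusted p = 7.98e-05). It ranged from −2.16 to −1.89 when any single array was left out. The 1 day arrays also lay below all 3 controls, by a smaller margin that did not pass (−0.28 ± 0.24, adjusted p = 0.876). From 1 day to 3 days DUSP6 fell by 1.74 ± 0.24 (adjusted p = 0.000439), and 3 days of 5-aza lay 5.25-fold below cisplatin (−2.39 ± 0.24, adjusted p = 2.26e-05).

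PHLDA1, a pleckstrin homology-like domain protein known as a gene induced by growth factor and ERK signalling, followed the same course. Its locus is chr12:76025447-76031776. Its values were 10.95, 11.25 and 11.24 in controls, 11.01, 10.84 and 10.83 after 1 day, 9.77, 9.89 and 9.92 after 3 days, and 11.53, 11.22 and 12 with cisplatin. Again the 3 day arrays lay below all others with no overlap, and the 1 day arrays overlapped the controls. PHLDA1 was 2.44-fold lower after 3 days (−1.29 ± 0.19, interval −1.69 to −0.88, adjusted p = 0.000454), with a range of −1.39 to −1.23 over single arrays left out. The difference between 3 days and 1 day was −1.03 ± 0.19 (adjusted p = 0.00351), and that between 3 days and cisplatin −1.72 ± 0.19 (adjusted p = 4.85e-05).

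PHLDA1 had a second probe that was detected on all 12 arrays. It read 8.19, 8.41 and 8.1 in controls, 8.14, 7.92 and 7.78 after 1 day, 7.17, 6.85 and 6.84 after 3 days, and 8.38, 8.22 and 8.06 with cisplatin. In a fit across all 19293 kept probes its 3 day difference was −1.28 ± 0.17 (adjusted p = 0.000237), almost the value of the brighter probe. The probes parted on cisplatin replicate 3, where the brighter probe gave its highest value of the 12 arrays and the second probe lay just below all 3 controls.

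The DNA before DUSP6 and PHLDA1 is shown because both genes fell with a drug that acts on cytosine methylation. CG pairs are where most of that methylation lies in human DNA. Pluripotent cells are also reported to carry high methylation outside CG pairs, in gene bodies. SPRED1 is set beside them as a member whose level hardly differed between 5-aza and control. No methylation was measured in the data used here. Each sequence is the 250 bases before a gene start in RefSeq (GRCh38.p14), written 5′ to 3′ on the strand of the gene with each CG in capitals.
DUSP6 (chr12:89352502-89352751, minus strand): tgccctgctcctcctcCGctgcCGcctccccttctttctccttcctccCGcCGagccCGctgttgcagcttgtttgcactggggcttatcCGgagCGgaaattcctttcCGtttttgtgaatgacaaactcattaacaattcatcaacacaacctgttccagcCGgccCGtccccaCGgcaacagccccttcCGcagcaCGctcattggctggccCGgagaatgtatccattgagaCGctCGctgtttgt
PHLDA1 (chr12:76031777-76032026, minus strand): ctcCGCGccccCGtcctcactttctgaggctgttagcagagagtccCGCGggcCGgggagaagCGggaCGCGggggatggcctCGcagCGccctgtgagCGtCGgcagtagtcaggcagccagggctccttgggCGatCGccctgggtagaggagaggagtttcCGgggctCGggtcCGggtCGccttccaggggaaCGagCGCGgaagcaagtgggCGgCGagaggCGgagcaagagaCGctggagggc
SPRED1 (chr15:38252586-38252835, plus strand): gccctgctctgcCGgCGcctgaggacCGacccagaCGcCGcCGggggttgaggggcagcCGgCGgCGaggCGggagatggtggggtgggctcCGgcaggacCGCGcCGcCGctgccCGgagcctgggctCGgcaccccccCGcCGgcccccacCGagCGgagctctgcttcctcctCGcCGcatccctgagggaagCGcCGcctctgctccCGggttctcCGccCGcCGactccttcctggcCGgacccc

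The DUSP6 window holds 16 CG pairs, that of PHLDA1 26 and that of SPRED1 30. Across all 35116 windows of the same length in the table the median was 11 (quartiles 3 and 23), and 59%, 80.4% and 87.6% of windows held fewer than these 3. The other windows of member genes held 8 and 24 CG pairs (SPRY1), 5, 13 and 23 (SPRY2) and 22 (SPRY4). SPRED1 has the most CG pairs of the 9 member windows. Whether these counts bear on the change of any gene was not tested. The ETS core CCGGAA, searched on both strands, lies in 14.5% of all windows and in 3 of the 9 windows of member genes, one each of PHLDA1, SPRY1 and SPRY2. The longer ETS motif CCGGAAGT (3.42% of all windows), the AP-1 motif TGACTCA (4.2%), the CRE motif TGACGTCA (1.65%), the CArG box (1.16%) and the p53 half-site (5.57%) were in none of these 9. Windows were matched for 6 member genes, and none were matched for DUSP4, DUSP5, ETV4 and ETV5.

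DUSP5 encodes a phosphatase that binds and inactivates ERK in the nucleus, and it moved the other way. Its locus is chr10:110497907-110511533, and it has a single probe on the array. DUSP5 read 8.59, 8.4 and 8.35 in controls, 8.61, 8.58 and 8.57 after 1 day, 9.53, 9.43 and 9.51 after 3 days, and 8.61, 8.57 and 8.75 with cisplatin. The 3 day arrays were all above the other 9, and lay within 0.1 of each other. The rise over control was 1.05 ± 0.14 (interval 0.76 to 1.34, adjusted p = 0.000168), and ranged from 1.00 to 1.12 over single arrays left out. Most of it came after the first day: DUSP5 differed from control by 0.14 ± 0.14 at 1 day (adjusted p = 0.883) and by 0.91 ± 0.14 between 1 and 3 days (adjusted p = 0.000901). It was also 1.80-fold above cisplatin (0.85 ± 0.14, adjusted p = 0.000867), a call that was lost with median scaling in place of quantile normalization (0.51, adjusted p = 0.0952). DUSP4, whose product is another nuclear phosphatase of the family, had raw intensities of 74.8 to 171.6 and 96.3 to 150.9 on its pair of probes, detected on 0 arrays, so that no change in it could be measured.

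The Sprouty genes encode inhibitors that act on the route between the receptor and RAF, and none of the 3 passed against control under either drug. SPRY1 (chr4:123396795-123403760) was the steadiest, at 11.26, 11.22 and 11.29 in controls, 11.26, 11.2 and 11.19 after 1 day, 10.99, 11.08 and 11.11 after 3 days, and 11.47, 11.3 and 10.98 with cisplatin. Its 3 day arrays lay below all controls by a margin that did not pass (−0.19 ± 0.15, adjusted p = 0.421). A second SPRY1 probe, detected on all arrays, gave −0.51 ± 0.23 at 3 days (adjusted p = 0.185) and −0.45 ± 0.23 at 1 day (adjusted p = 0.936), both without overlap with the controls. The third was detected on 4 arrays and differed by 0.01 at 3 days.

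SPRY2 (chr13:80335976-80341126) stood at 10.55, 10.61 and 10.8 in controls, 10.79, 10.65 and 10.89 after 1 day and 10.74, 10.79 and 11 after 3 days. With cisplatin it read 10.79, 10.13 and 9.24. The 5-aza arrays overlapped the controls, and the cisplatin arrays ran from within the control range to well below it. The differences from control were 0.12 ± 0.28 at 1 day (adjusted p = 0.952), 0.19 ± 0.28 at 3 days (adjusted p = 0.694) and −0.60 ± 0.28 with cisplatin (adjusted p = 0.237).

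SPRY4 (chr5:142310430-142325021) was lowest after 1 day of 5-aza at its brightest probe. It read 8.3, 7.89 and 7.93 in controls, 7.21, 7.52 and 7.43 after 1 day, 7.85, 7.93 and 7.98 after 3 days, and 8.01, 8.68 and 10.14 with cisplatin. The 1 day arrays lay below all controls and below all 3 day arrays, the 3 day arrays overlapped the controls, and the cisplatin arrays reached from the control range to 2.11 above the control mean. Neither the 1 day difference from control (−0.65 ± 0.37, adjusted p = 0.863) nor that between 3 days and 1 day (0.53 ± 0.37, adjusted p = 0.45) passed. Each gene has 1 variance for all groups in the model, cisplatin included. The difference between the times passed in a fit without the cisplatin arrays (adjusted p = 0.0122), with only the 6 arrays compared (adjusted p = 0.00652) and with array weights (adjusted p = 0.012). In the F test over the 3 treatments SPRY4 passed narrowly (adjusted p = 0.0436), a call that was kept in only 2 of the 12 fits with an array left out, those without cisplatin replicate 1 and without cisplatin replicate 3. A second SPRY4 probe in the tests, detected on only 3 arrays, had another pattern. It read 6.31, 6.29 and 6.39 in controls, 6.28, 6.11 and 6.13 after 1 day, and 6.19, 6.05 and 6.05 after 3 days, so that both 5-aza groups lay below the controls and overlapped each other. It gave −0.16 at 1 day, −0.23 at 3 days and −0.07 between the times, none of which passed (adjusted p = 0.942, 0.443 and 0.881).

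SPRED1 (chr15:38252836-38357249), whose product brings the RAS inhibitor neurofibromin to the membrane, differed from control by 0.01 ± 0.18 at 1 day and 0.02 ± 0.18 at 3 days. The 3 day interval ran from −0.36 to 0.39. On the arrays it read 10.88, 10.71 and 10.74 in controls, 10.97, 10.69 and 10.69 after 1 day, 10.74, 10.82 and 10.81 after 3 days, and 10.88, 10.49 and 10.2 with cisplatin. Groups overlapped throughout, with cisplatin replicates 2 and 3 the lowest of the 12.

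ETV4 and ETV5 encode ETS transcription factors of the PEA3 family that act downstream of FGF receptors. ETV4 (chr17:43527846-43546340) was among the least steady members, at 9.3, 9.2 and 8.62 in controls, 8.77, 8.45 and 8.37 after 1 day, 8.22, 8.77 and 8.44 after 3 days, and 8.33, 9.77 and 10.78 with cisplatin. Control replicate 3 lay within the range of the 5-aza arrays, which were otherwise lower than the controls. The differences were −0.50 ± 0.44 at 1 day (adjusted p = 0.876) and −0.56 ± 0.44 at 3 days (adjusted p = 0.422), the latter passing only in the fit without the cisplatin arrays (adjusted p = 0.0418). A second ETV4 probe gave −0.67 ± 0.37 at 3 days (adjusted p = 0.269).

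ETV5 (chr3:186046314-186109089) hardly differed under 5-aza at its brightest probe, with 10.47, 10.72 and 10.66 in controls, 10.67, 10.77 and 10.74 after 1 day, and 10.63, 10.81 and 10.82 after 3 days. Those arrays overlapped. Its second probe, also detected on all 12 arrays, read 7.94, 7.64 and 7.36 in controls, 6.93, 7.07 and 7.18 after 1 day, and 6.92, 7.12 and 7.17 after 3 days. There the 5-aza arrays lay below every control at both times, by 0.59 and 0.58 log2 units, without passing (adjusted p = 0.936 and 0.2). The probes of ETV5 thus pointed in opposite directions at 3 days (0.14 and −0.58), and which transcripts each of them reads was not determined here.

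**Figure D2:**
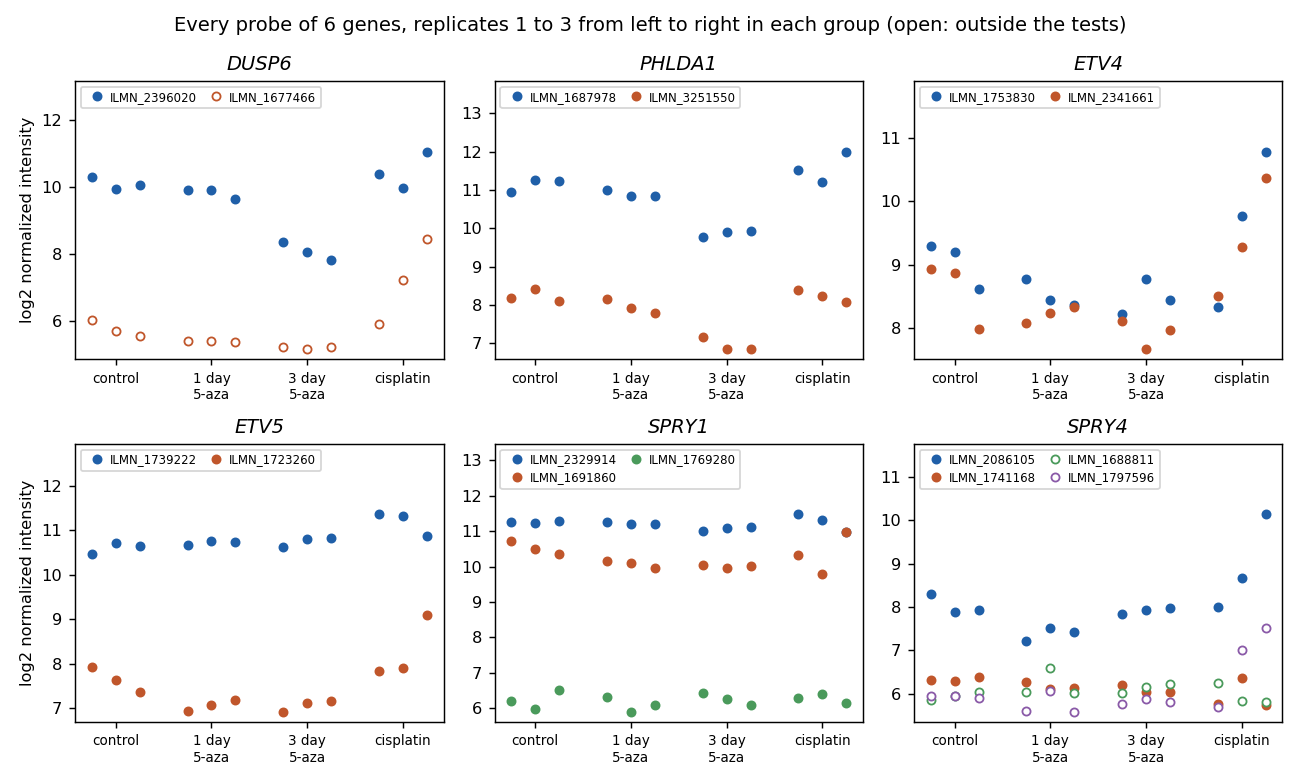
Every probe of the 6 genes with more than 1 probe and a detected value, as normalized log2 intensity on the 12 arrays (replicates 1 to 3 from left to right within each group, filled points for probes in the tests and open points for probes outside them). Both PHLDA1 probes are low after 3 days of 5-aza, while the 2 main probes of ETV5 differ in pattern, and an open series of DUSP6 and one of SPRY4 are highest on cisplatin replicates 2 and 3.

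Cells with the longer exposure were compared with control to see what several days of 5-aza do. Of the 9 members tested, 1 was called higher and 2 lower, where 10.5% of all genes were called higher and 6.56% lower. The groups did not overlap for 4 members (DUSP5, DUSP6, PHLDA1 and SPRY1) against 48.6% of all genes. The median member difference was −0.12, beside 0.01 over all genes.

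The 1 day group was included to see early effects. At 1 day limma called 0 of 9 members and 0% of all genes, while 622 genes but no member had an unadjusted p under 0.05. Fits with array weights, with only the 6 arrays compared and without the cisplatin arrays called 127, 1 and 73 genes, again with 0 members. DUSP6 and SPRY4 did not overlap with control, 2 of 9 members against 24.2% of genes, and the medians were −0.04 for members and 0.02 for all genes. Between 3 days and 1 day the same 3 genes as at 3 days were called, 1 higher and 2 lower (5.82% and 3.17% of all genes). The times did not overlap for 5 of 9 members (these 3, SPRY1 and SPRY4), against 46% of all genes.

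**Figure D3:**
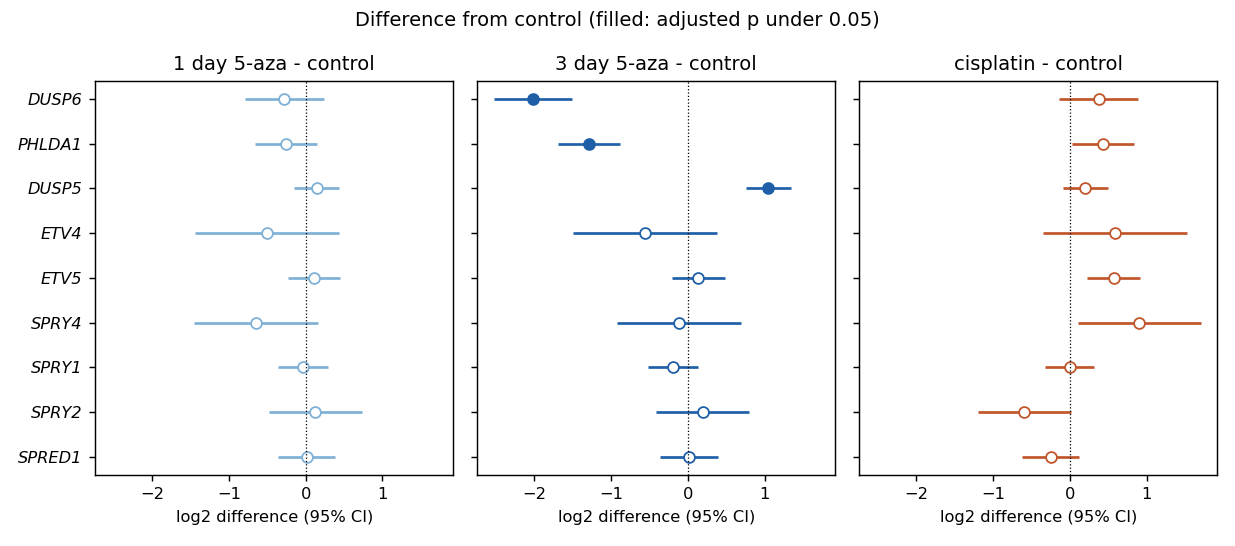
Log2 difference from control with its 95% confidence interval for the 9 tested feedback genes after 1 day of 5-aza, 3 days of 5-aza and cisplatin, with filled points for an adjusted p under 0.05. Filled points appear only for 3 days of 5-aza, at −2.02 for DUSP6, −1.29 for PHLDA1 and 1.05 for DUSP5.

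The comparison of cisplatin with control gives the response to a DNA crosslinking drug. For cisplatin limma called 0 of 9 members, where 1.43% of all genes were called, and 3 members (SPRY4, PHLDA1 and ETV5) had an unadjusted p under 0.05, with 2435 such genes in all. The median member difference was 0.37, beside −0.04 over all genes. ETV5 was the 1 member whose cisplatin arrays (11.36, 11.32 and 10.88) all lay above the controls, against 16.3% of genes without overlap in either direction. Its difference was 0.57 ± 0.16 (adjusted p = 0.0892), which passed without cisplatin replicate 3 (0.72, adjusted p = 0.0145) and without cisplatin replicate 1 (0.49, adjusted p = 0.0399).

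The cisplatin arrays differed among themselves in several of these genes. Against the control mean, SPRY4 differed by −0.03, 0.64 and 2.11 on replicates 1, 2 and 3, and ETV4 by −0.71, 0.73 and 1.74. SPRY2 went the other way, at 0.14, −0.52 and −1.41, and so did SPRED1, at 0.11, −0.28 and −0.57. On replicate 1 these 4 genes were thus in or near the control range or, for ETV4, below it, whereas replicate 3 lay farthest from control in each of them.

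**Figure D4:**
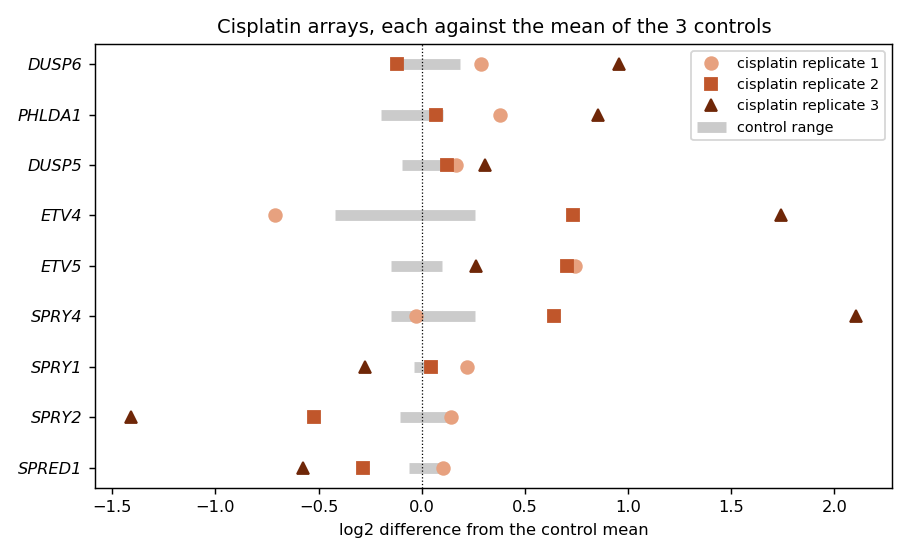
Log2 difference of each cisplatin array from the mean of the 3 controls for the 9 tested feedback genes, with the range of the controls as a grey bar. Replicate 3 lies farthest out for SPRY4 (2.11), ETV4 (1.74) and SPRY2 (−1.41), and replicates 1 and 2 lie close together for ETV5 and DUSP5.

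Replicate 3 also had the most detected probes of the 12 arrays (19824), and the part of that in these differences was not tested. Its excess over the mean of replicates 1 and 2 was 1.80 for SPRY4 and 1.73 for ETV4, higher than in 99.0% and 98.9% of all genes, and −1.22 for SPRY2, lower than in all but 2.14% of them. Over all genes 6.66% exceeded 1 and 5.03% lay below −1, and among the 9 members it was 2 and 1. Without replicate 1, cisplatin against control called 5 members: SPRY4 (1.37, adjusted p = 0.00746), ETV4 (1.24, adjusted p = 0.00876), ETV5, SPRY2 (−0.96, adjusted p = 0.00734) and SPRED1 (−0.43, adjusted p = 0.0498). The same fit called 3059 of all genes, against 159 with every array kept.

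Other probes of these genes showed the same spread in part. The second ETV4 probe read 8.51, 9.28 and 10.36 with cisplatin against 8.93, 8.87 and 7.99 in controls. The second DUSP6 probe, which was outside the tests, was above background on cisplatin replicates 2 and 3 alone, with raw intensities of 262.5 and 655.4 against 140.1 to 191.9 in controls. An SPRY4 probe outside the tests was likewise detected on those 2 arrays alone, at 240.4 and 424.8 against 175.8 to 184.5 in controls. The second SPRY4 probe in the tests did not follow, but it was detected on only 1 cisplatin array. It read 5.77, 6.36 and 5.74 with cisplatin, where the lowest detected signals of those arrays were 6.37, 6.31 and 6.15. Its lowest value of the 12 arrays was thus a background value, on replicate 3, where the brightest probe had its highest. This probe differed from control by −0.37 ± 0.17 (adjusted p = 0.25), a difference near background, against 0.91 for the brightest probe. For SPRY1, ETV5 and PHLDA1 too the probes of a gene disagreed on replicate 3: the second ETV5 probe gave 9.09, its highest value, where the brightest probe gave its lowest cisplatin value.

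The comparison of 3 days of 5-aza with cisplatin called 1 member higher and 2 lower (15% and 10.1% of all genes), again DUSP5, DUSP6 and PHLDA1. Groups did not overlap for 5 members, with SPRY4 and ETV5 added, against 34% of genes. The medians were −0.43 for members and 0.07 for all genes. SPRY2 (0.79 ± 0.28, adjusted p = 0.0559), SPRY4 (−1.02 ± 0.37, adjusted p = 0.0605), ETV5 (−0.43 ± 0.16, adjusted p = 0.0627) and ETV4 (−1.15 ± 0.44, adjusted p = 0.0682) did not pass. The ETV5 difference passed in 6 of 12 alternative settings, with median scaling (adjusted p = 0.0106), cyclic loess (0.0319), the deposited normalized values (0.0342), no background correction (0.0340), an offset of 50 (0.0459) and the mean of kept probes (0.0019), and also without cisplatin replicate 3. ETV4 passed with median scaling, the mean of kept probes and array weights, and SPRY2 and SPRY4 with array weights. At the probe level the second probes of ETV5 (−1.21 ± 0.28, adjusted p = 0.0094) and ETV4 (−1.46 ± 0.37, adjusted p = 0.015) passed. The 3 day group is shared with the comparison against control, so these are not separate evidence on DUSP6, PHLDA1 and DUSP5.

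Over the 3 contrasts against control, the F test called 4 of 9 members, DUSP6 (adjusted p = 6.3e-05), PHLDA1 (0.000203), DUSP5 (0.000482) and SPRY4, beside 20.4% of all genes. ETV5 (0.0647), SPRY2 (0.138), ETV4 (0.155), SPRED1 (0.499) and SPRY1 (0.648) did not pass. DUSP5, DUSP6 and PHLDA1 were called by the F test in every alternative in which it was run. SPRY4 was not called with median scaling, the deposited normalized values, no background correction, an offset of 50, no filter on detection, the mean of kept probes or a replicate block, nor at an adjusted p under 0.01. ETV5 was called in 5 of these fits, those with median scaling, the deposited values, no background correction, the offset and the mean of kept probes, and with cyclic loess both were.

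The rest of the pathway is described from 5 lists, with 3 days of 5-aza against control first. There 16 of the 48 tested list genes were called, where 10.5% of all genes were called higher and 6.56% lower. Among FGF ligands 6 of 18 genes could be tested, with 0 higher, 2 lower and 4 not passing (median 0.03). FGF2, the growth factor most used to culture human pluripotent cells, stood at 9.74, 9.34 and 9.63 in controls and 8.55, 8.68 and 8.74 after 3 days, with no overlap, and was 1.89-fold lower (−0.92 ± 0.25, adjusted p = 0.0232). FGF19, an endocrine FGF, was undetected on all 3 day arrays and was at least 1.39-fold lower (adjusted p = 0.0147), the bound being set against the lowest detected signal of each array.

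Among FGF receptors and adaptors 10 of 16 were tested, with 2 higher, 1 lower and 7 not passing (median 0.01). FGFR3, an FGF receptor, was 1.71-fold higher (0.77 ± 0.19, adjusted p = 0.0137) and the docking protein gene FRS3 1.83-fold higher (0.87 ± 0.27, adjusted p = 0.0415). GRB2, the adaptor that links receptors to RAS activation, was 1.62-fold lower (−0.69 ± 0.18, adjusted p = 0.0162). Its values were 8.54, 8.4 and 8.25 in controls and 7.73, 7.74 and 7.65 after 3 days.

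Of the RAS-RAF-MEK-ERK cascade 9 of 16 genes were tested, with 3 higher, 0 lower and 6 not passing (median 0.39). RRAS, a small GTPase related to RAS, rose most, from 6.44, 7.17 and 6.6 in controls to 9.27, 9.34 and 9.44 after 3 days (2.62 ± 0.18, 6.13-fold, adjusted p = 9.87e-07). It stood at 6.89, 7.06 and 7.22 after 1 day and at 6.87, 6.82 and 6.71 with cisplatin, all within or just above the control range. MAPK3, which encodes ERK1, was 2.10-fold higher (1.07 ± 0.22, adjusted p = 0.00477), and RPS6KA1, a kinase that ERK activates, 2.05-fold higher (1.03 ± 0.24, adjusted p = 0.00963, 0.0579 without control replicate 1). MAP2K1, which encodes the ERK kinase MEK1, differed by 0.40 without passing (adjusted p = 0.0986).

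Of 16 other inhibitors of RAS-ERK signalling 10 were tested, with 2 higher, 0 lower and 8 not passing (median 0.30). DUSP10, a phosphatase for the stress kinases JNK and p38, was 1.61-fold higher (adjusted p = 0.0233), and DUSP8, of the same class, 1.63-fold higher at the edge of the threshold (adjusted p = 0.04997). SPRED2, a relative of SPRED1, differed by 0.80 ± 0.31 (adjusted p = 0.0945). Both calls in this list ended with median scaling and with cyclic loess, and that of DUSP8 also with the deposited values, no background correction, an offset of 50, no filter and a replicate block.

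Of 18 other ERK response genes 13 were tested, with 5 higher, 1 lower and 7 not passing (median 0.31). JUN and FOSL1, which encode subunits of the AP-1 transcription factor, were 3.17-fold (1.66 ± 0.21, adjusted p = 0.000137) and at least 2.30-fold higher (adjusted p = 0.00376). EGR1, an immediate early transcription factor gene, was 2.90-fold higher (adjusted p = 0.000371), the stress-responsive gene IER3 2.71-fold (adjusted p = 8.75e-05) and the cyclin gene CCND1 1.67-fold (adjusted p = 0.0455). MYC, a transcription factor gene of growth, went from 9.86, 10.18 and 10.09 in controls to 7.89, 8.12 and 8.09 after 3 days, 4.03-fold lower (−2.01 ± 0.27, adjusted p = 0.000253). Genes of this list were called on both sides of control at 3 days, as were feedback genes. The authors of the study count IER3 among p53 target genes and MYC among pluripotency genes. ERK activity was not measured in the data used here, and what moved these genes was not tested.

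**Figure D5:**
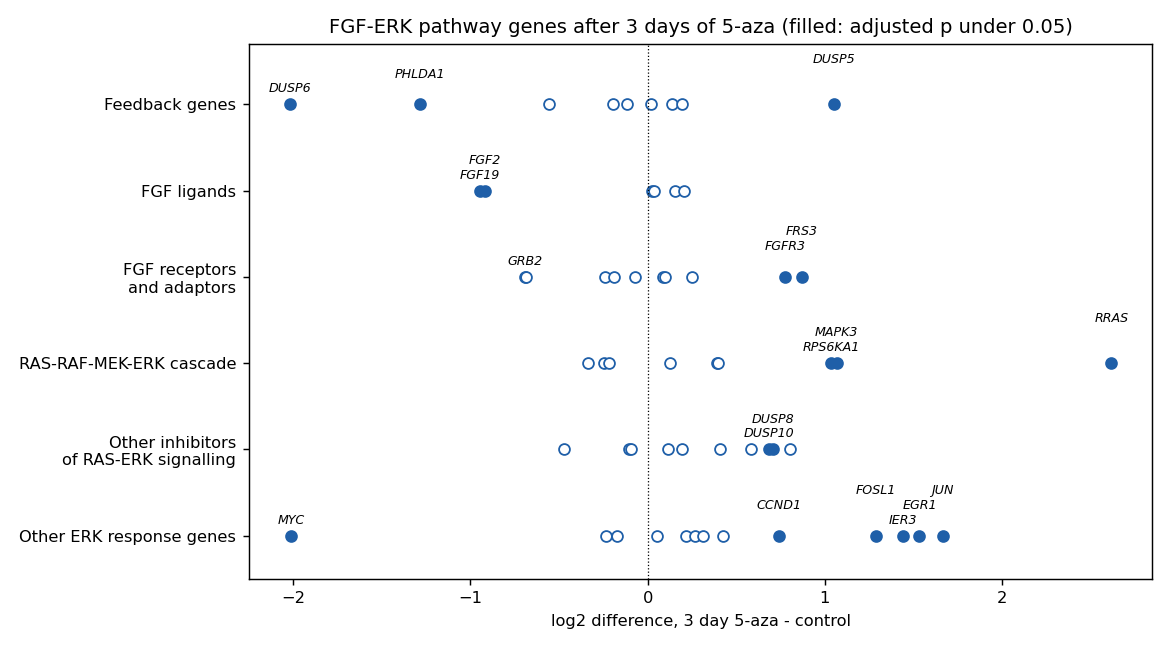
Log2 difference between 3 days of 5-aza and control for every tested gene of the feedback group and of the 5 pathway lists, 1 row per list, with filled points and names for an adjusted p under 0.05. DUSP6 (−2.02) and MYC (−2.01) lie farthest to the left and RRAS (2.62) farthest to the right.

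Of the 16 list genes called at 3 days, 7 kept their call with any single array left out: RRAS, MAPK3, JUN, EGR1, IER3, FOSL1 and MYC. RPS6KA1 lost it only without control replicate 1. DUSP8 and CCND1 each lost it in 9 of 12 omissions and FRS3 in 8, FGF2 in 5, and FGF19, FGFR3, GRB2 and DUSP10 in 3. Control replicate 1 was among the omissions that ended each of these 9 calls. Median scaling and cyclic loess also ended the call of CCND1, the absence of a detection filter those of CCND1, FGF2 and FRS3, and the mean of kept probes that of GRB2.

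After 1 day of 5-aza limma called 0 of the 48 tested genes of the 5 lists, and 4 had an unadjusted p under 0.05: GRB2 (−0.58 ± 0.18, adjusted p = 0.817), RPS6KA1 (0.56 ± 0.24, adjusted p = 0.863), FGFR3 (0.42 ± 0.19, adjusted p = 0.863) and HBEGF, the gene of an EGF receptor ligand (adjusted p = 0.841), which was undetected on all control arrays and detected on 3 of the 12 arrays, so that no fold is given. GRB2 read 7.8, 7.7 and 7.95 on the 1 day arrays, all below the controls. The list medians were 0.00 for ligands, −0.02 for receptors and adaptors, 0.27 for the cascade, 0.06 for other inhibitors and 0.19 for other response genes, beside 0.02 over all genes. With cisplatin 2 of the 48 genes were called, both other ERK response genes, where 1.43% of all genes were called. FOSL1 was undetected in controls and stood at 8.24, 7.64 and 8.81 with cisplatin, at least 3.70-fold higher (adjusted p = 0.00144). IER3 went from 8.17, 8.8 and 8.65 to 10.2, 10.25 and 10, 3.05-fold higher (1.61 ± 0.17, adjusted p = 0.000256). Both calls were kept without any single array. The cisplatin medians were 0.04, −0.07, 0.46, 0.03 and 0.42 in the same order of lists.

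Between 3 days and 1 day the lists gave FGF2 lower, RRAS higher, and EGR1, FOSL1, JUN and IER3 higher with MYC lower. That is 7 of the 48 tested list genes, where 8.99% of all genes were called. Of these 7 calls 6 were kept with any single array left out, and FGF2 lost its call in 9 of 12 omissions. Between 3 days and cisplatin RRAS, EGR1, JUN, SPRED2 and KLB (a co-receptor of endocrine FGFs) were higher, and MYC, FGF19, EPHA2 (a receptor tyrosine kinase), the RAS gene HRAS, MAP2K2 (which encodes MEK2) and SHC1 (an adaptor) were lower. That is 11 of the 48 tested list genes, where 25.1% of all genes were called, so the lists did not stand out by their count. Of these 11 calls, 4 (RRAS, EGR1, JUN and MYC) were kept with any single array left out, although that of EGR1 ended with median scaling and with only the 6 arrays compared. SHC1 and MAP2K2 each lost the call in 11 of 12 omissions, KLB in 10, EPHA2 in 4, HRAS and SPRED2 in 3 and FGF19 in 1, without 3 day replicate 2.

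Across the 12 arrays, which fall into 4 groups so that likeness mostly follows the 3 day group, the tested non-member genes most like DUSP6 were RRAS2, a GTPase of the RAS family (Pearson r = 0.979), GDF3, a ligand of the TGF-beta family (0.975), and LEFTY1, an antagonist of Nodal (0.972). PHLDA1 had r = 0.96 with DUSP6, and 0.95 without cisplatin replicate 3. The genes most like DUSP5 were RAC2 (0.981), CACNG6, a calcium channel subunit (0.980), and SH2D3C, a signalling adaptor (0.978).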

How the data were processed

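RNA was taken up in Trizol and copied into biotin-labelled cRNA (Ambion MessageAmp) by the authors, who read the scanned beads into GenomeStudio, whose version is not given in the sources used here. The main values are the deposited non-normalized bead intensity of 47231 probes, with the deposited detection p-value, which compares a probe with negative control beads on its array. The deposited table that the authors had quantile-normalized, also intensity, served as an alternative.

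Intensities were corrected with the normal-exponential model (offset 16, with the negative control signal deduced from detection p-values), quantile-normalized and log2-transformed with limma 3.58.1 in R 4.3.3. Probes that were detected at p under 0.05 on 3 or more arrays were kept (19293), with gene symbols from the platform annotation. Of all probes 30112 had a single symbol, 8 had several and 17111 none. The brightest kept probe stood for a gene. Group means were fitted with lmFit and eBayes to all 12 arrays (8 residual and 5.64 prior degrees of freedom), with 5 contrasts and a moderated F test over the 3 against control. All tests are two-sided. A gene undetected on all arrays of a group is given a bound, taken against the lowest detected signal per array. The fit over all kept probes was chosen after the data were seen. Precision is limited by the number of arrays. The script was tested on simulated data.

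The text names every member, the called genes of 5 pathway lists, and the 3 genes most like DUSP6 and DUSP5, and gives a value for a few list genes that did not pass, which were chosen after their values were seen. Members and lists were chosen with earlier results of these data known, in which DUSP6 and PHLDA1 at 3 days already stood. Promoter windows and loci are from RefSeq on GRCh38.p14, and the position of a probe within its gene was not used here.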

Additional observations from a re-analysis of the deposited data

Results flagged for a closer look

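The response of 3 feedback genes differed between 1 and 3 days of 5-aza, by the test of the difference between the times: DUSP6 by −1.74, PHLDA1 by −1.03 and DUSP5 by 0.91 on the log2 scale. Each was lower, or for DUSP5 higher, on all 3 arrays of the 3 day group than on all 3 of the 1 day group. The times did not overlap for 46% of all genes either, and 5.82% of all genes were called higher and 3.17% lower.

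Probes left out of the tests for low signal were above background on treated arrays and on no control. A second DUSP6 probe (ILMN_1677466) reached an intensity of 655.4 and an SPRY4 probe (ILMN_1797596) 424.8, both on cisplatin replicate 3, and both were also detected on cisplatin replicate 2. Another SPRY4 probe (ILMN_1688811) was detected only on 1 day replicate 2, at 208.2 against 174.2 to 187.4 in controls. Groups of 3 arrays were too small for a test of single outlying arrays.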

How the results depend on the processing

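Of 1152 member values recomputed under the alternatives, 1093 kept their direction and their side of the threshold, 28 passed newly, 30 changed sign and 1 lost its call (DUSP5 between 3 days and cisplatin, with median scaling). For part of these values the direction could not change, so the count overstates how steady directions are. A stricter threshold, a fit on fewer groups, a replicate block and the fit over all kept probes leave the difference itself as it was. So does the omission of an array outside the comparison. No value that changed sign was called. DUSP5, DUSP6 and PHLDA1 were called against control at 3 days and between the times in every alternative, including median scaling, cyclic loess, the deposited table, no background correction and the loss of any single array.

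Cisplatin against control called 1 member with median scaling and 1 with cyclic loess, ETV5 in both, and from 0 to 5 with single arrays left out. Median scaling and cyclic loess called 267 and 233 of all genes, against 159 in the main fit. The omission that gave 5 members, that of cisplatin replicate 1, called 3059. The 3 days against cisplatin called 5 members with the mean of kept probes, 6 with array weights, and from 3 to 7 with single arrays left out. The same fits called 2950 and 2492 of all genes, and 4557 without cisplatin replicate 1, the omission that gave 7, against 2795 with every array kept. Deviations from the group mean in replicates of the same number had correlations of −0.52 to 0.22 between groups. With 3 arrays per group, these cannot tell whether replicates of the same number were handled together. With a replicate block the members called were 3 at 3 days, 3 between the times, 3 against cisplatin and 3 in the F test. The same fit called 1614, 827, 2448 and 1736 of all 11139 genes in that order.

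Sign changes, all in values without a call, were as follows. Median scaling, which moved the median of all genes by up to 0.24 (from 0.07 to −0.17 between 3 days and cisplatin), gave SPRY1 0.10 at 1 day and 0.13 with cisplatin, SPRED1 −0.13 at 3 days, −0.25 between the times and −0.0343 against cisplatin, ETV5 −0.00986 at 3 days and −0.22 between the times, and SPRY2 −0.18 between the times. Cyclic loess gave SPRY1 0.0770 with cisplatin and ETV4 0.0183 between the times, the mean of kept probes ETV5 −0.24 at 1 day and −0.22 at 3 days, and array weights SPRY1 0.0296 with cisplatin and ETV4 0.00673 between the times. Leaving out single arrays gave SPRY4 between −0.192 and 0.0124 at 3 days, SPRED1 between −0.0824 and 0.0620 at 1 day, between −0.0152 and 0.0678 at 3 days and from −0.0416 to 0.0990 between the times, and SPRY1 between −0.116 and 0.132 with cisplatin. Between the times it gave ETV4 from −0.203 to 0.0743, SPRY2 from −0.00741 to 0.127 and ETV5 from −0.00188 to 0.0922. The cause of these changes was not tested.

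Over all genes, 3 days against control called 1901, 878 at an adjusted p under 0.01, 4262 without the cisplatin arrays and 4055 with array weights, and cisplatin 159, 267 with median scaling, 633 with array weights and 3059 without cisplatin replicate 1. Median scaling turned 102 higher of 159 into 257 of 267 with cisplatin, 648 of 1001 into 369 of 926 between the times, and 1675 of 2795 into 596 of 2443 against cisplatin. Of 615 counts of called list genes 132 moved by more than 1.5 times.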
